A study of Homo sapiens with 8 samples.

Results

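The 10 genes described here encode chaperones and folding enzymes of the endoplasmic reticulum (ER) lumen. They were chosen by name, and all 10 were found among the 60617 genes of the count table and were tested, as were 17693 genes in all. The RNA came from MCF-10A, an established, non-tumorigenic line of human breast epithelium, in 2 versions that the labels call Empty and NeuT. Each version was either left untreated or given 1 µM JG-98, an inhibitor of Hsp70 chaperones, for 12 h, with 2 libraries in each of the 4 groups. What the NeuT cells carry, whether each line is 1 clone and whether replicates were separate cultures are not given in the sources used here, so p-values measure the spread between these libraries, which may be technical. All 4 groups were grown in medium with horse serum, epidermal growth factor, hydrocortisone, insulin and cholera toxin. The series compared how sensitive transformed cells are to JG-98.

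Proteins bound for secretion or for the cell surface fold in the ER lumen, where chaperones hold unfolded chains, lectins bind their sugars, and oxidoreductases form and reshuffle disulfide bonds. When unfolded proteins accumulate there, the sensors ATF6, IRE1 (gene ERN1) and PERK (gene EIF2AK3) start the unfolded protein response, and the genes of many lumenal folding factors are among its classical targets. JG-98 was designed against the Hsp70 family, of which BiP, the product of HSPA5, is an ER member.

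The promoters of these genes are known for the ER stress response element (ERSE), CCAAT and CCACG separated by 9 bases, and for the shorter ERSE-II, ATTGG and CCACG separated by 1 base. Both were searched on both strands in RefSeq promoters (build GRCh38.p14) running from 250 bases before to 50 after the start site, as was the UPRE, TGACGTGG. The table had 12 promoters for the 10 genes, with 2 start sites each for PDIA4 and PDIA6. ERSE was found in 27 of 35116 promoters, or 0.0769%, and in 6 of the 12 member promoters. ERSE-II was found in 0.0541% of all promoters and in those of HYOU1 and SDF2L1, and UPRE in 0.729% and in that of HYOU1. No match to these 3 motifs lay in the windows of PDIA4 and MANF, while the short parts CCACG (38.1% of all promoters) and CCAAT (34.6%) each occurred in at least 1 window of all 10 genes. A match describes letters in a window and not binding.

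The matches are shown because they are what most of the members share outside the count data, and HSPA5 is shown with its whole upstream stretch because it is the best known target of this element. Each is printed 5′ to 3′ on the strand that carries the motif, with the motif in capitals.
HSPA5, 250 bases before the start site, chr9:125241344-125241593, minus strand: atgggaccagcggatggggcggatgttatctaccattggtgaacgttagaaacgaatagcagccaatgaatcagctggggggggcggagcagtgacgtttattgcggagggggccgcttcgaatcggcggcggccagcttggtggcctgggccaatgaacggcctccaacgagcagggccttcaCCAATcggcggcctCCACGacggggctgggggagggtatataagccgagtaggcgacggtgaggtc
HSP90B1, distal match, chr12:103930216-103930234: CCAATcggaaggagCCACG
HSP90B1, proximal match, chr12:103930321-103930339: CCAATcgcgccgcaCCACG
CALR, chr19:12938384-12938402: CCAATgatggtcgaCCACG
PDIA6, downstream start site, chr2:10812853-10812871: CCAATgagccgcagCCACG
CRELD2, chr22:49918554-49918572: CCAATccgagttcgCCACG
ERO1B, chr1:236282183-236282201: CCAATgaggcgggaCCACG
SDF2L1, chr22:21642114-21642124: ATTGGTCCACG
HYOU1, proximal match, chr11:119057274-119057284: ATTGGACCACG
HYOU1, distal stretch on the strand of the gene, chr11:119057380-119057393: TGACGTGGTCCAAT
In the distal stretch of HYOU1, a forward UPRE and a reverse ERSE-II share 5 bases. The CRELD2 match lies in the window that this gene shares with ALG12, which is read the other way.

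**Figure D1:**
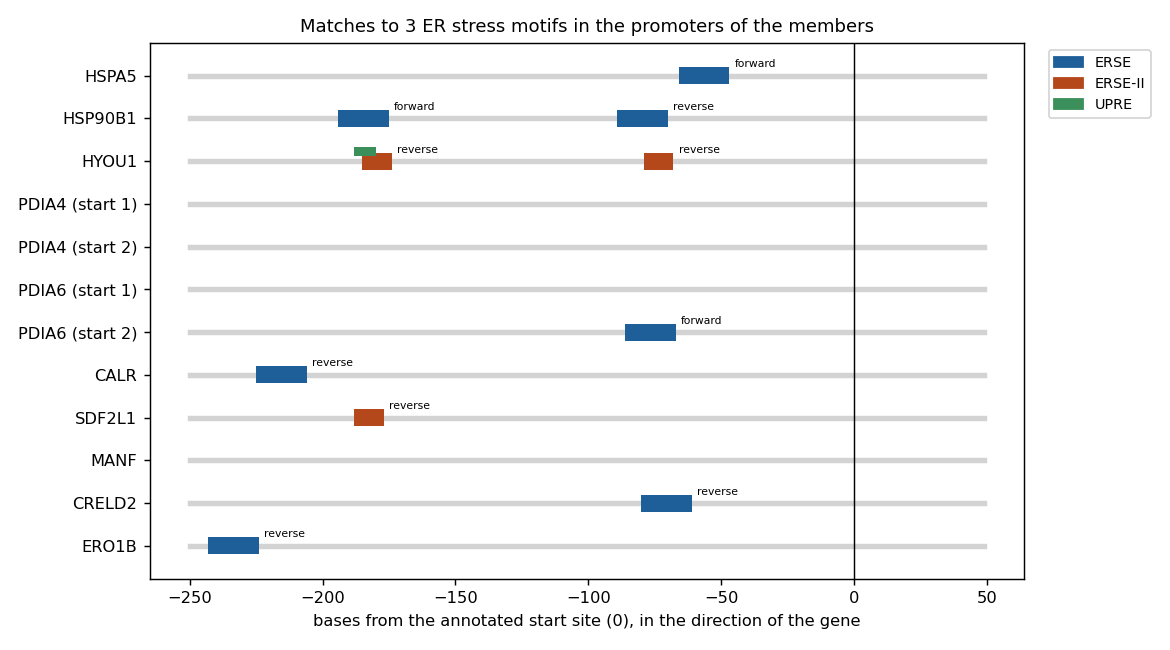
Positions of ERSE (blue), ERSE-II (orange) and UPRE (green) matches in the promoter windows of the 10 genes (rows, grey lines), in bases from the start site at 0, with the strand relative to the gene. HSP90B1 and HYOU1 each hold a distal and a proximal match, and the windows of PDIA4 and MANF hold none.

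Total counts lay between 55050996 and 56861971 per library except for 37341458 in Empty treated replicate 1. Replicates differed by more than sampling noise, most of all those of treated NeuT. The MCF-10A markers KRT5, KRT14, KRT17, CDH1, ITGB4 and TP63 were detected. The 4 fibroblast markers summed to 8.27 to 9.50 CPM (counts relative to the library total, with TMM factors) in Empty and 68.2 to 82.8 CPM in NeuT. Nearly all of the NeuT sum was DCN. In Empty COL1A1 was the larger part, with means of 5.12 CPM untreated and 5.48 treated, against 3.38 and 2.86 for DCN. The 3 blood markers summed to 5.01 to 6.99 CPM in Empty and 10.7 to 12.3 CPM in NeuT, and the 3 endothelial ones to 10.6 to 15.1 and 8.29 to 9.94 CPM. Nearly all of the blood sum was CD14, while PTPRC had at most 4 counts in a library and CD3E at most 2, and both were at 0 in untreated NeuT. Nearly all of the endothelial sum was PECAM1, while CDH5 had 2 to 7 counts in Empty libraries and 16 to 34 in NeuT, opposite to the sum. The fibroblast and blood sums were thus higher in NeuT and the endothelial sum lower, and their part in the line differences below was not tested. As in any bulk RNA, fewer cells that express a gene and less RNA per cell cannot be told apart.

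The 10 genes held 0.360% to 0.392% of all counts in the Empty libraries and 0.275% to 0.308% in the NeuT libraries. Per kilobase of exon, CALR ranked first in all 8 libraries, followed by HSPA5, HSP90B1 and PDIA4. CALR stood at 388 to 419 CPM per kb in Empty and 307 to 370 in NeuT, and HSPA5 at 183 to 215 and 179 to 197. PDIA6 stood above MANF in all 4 Empty libraries (55.4 to 59.9 against 53.3 to 55.4 CPM per kb) and below it in both untreated NeuT libraries (45.7 and 47.5 against 53.8 and 53.5). In treated NeuT the order of the pair differed between the 2 libraries. SDF2L1 stood above HYOU1 in every library except NeuT treated replicate 2, so the order of both pairs was not resolved in treated NeuT. CRELD2 was ninth and ERO1B last in every library. ERO1B rested on few reads and its values carry the widest error.

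**Figure D2:**
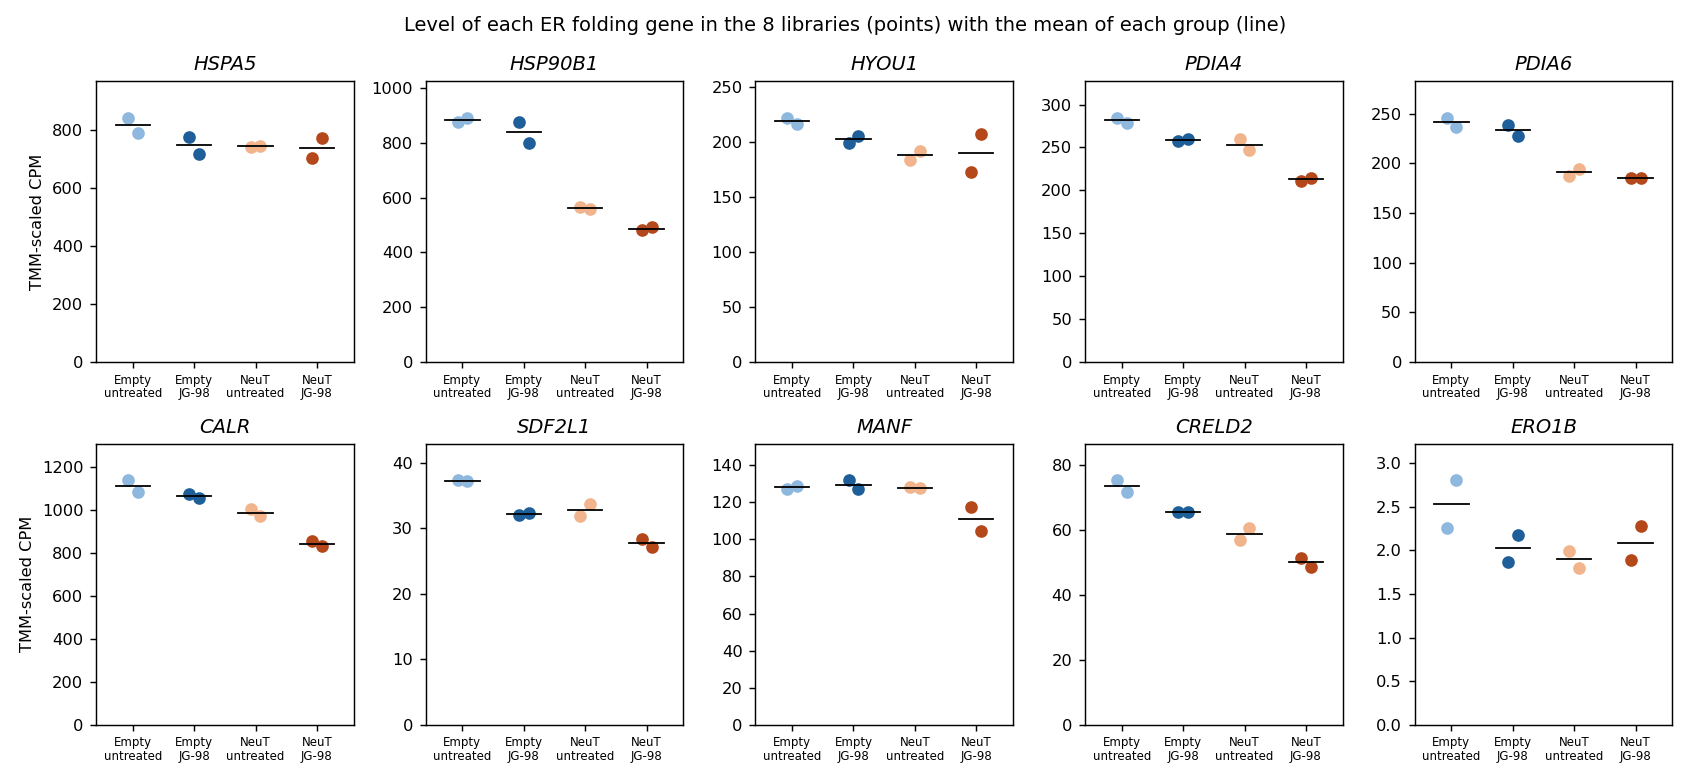
TMM-scaled CPM (vertical axes, starting at 0) of the 10 genes in each library (points) of the 4 groups, with the mean of 2 libraries as a line. HSP90B1 shows the widest gap between lines, with 801 to 892 CPM in Empty and 482 to 566 CPM in NeuT, whereas the HSPA5 points of the 2 lines overlap.

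The clearest difference was between the lines. In untreated cells 7 of the 10 genes were lower in NeuT than in Empty, and none was higher. HSP90B1 differed most, by a factor of 1.58, and the other 6 were 10.1% to 20.7% lower. Over all genes, edgeR called 20.8% lower and 21.2% higher in this comparison. The median log2 difference of the 10 genes was -0.21, against -0.0156 over all genes tested. Libraries of the 2 lines did not overlap, with NeuT lower, for 9 of the 10 genes and for 37.1% of all genes. Under total-count scaling in place of TMM, 40.7% of all calls were higher in NeuT rather than 50.5%, and 8 of the 10 genes were called lower.

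Of the chaperones, HSPA5 (ENSG00000044574, chromosome 9, 125234853 to 125241343) encodes BiP, the ER Hsp70 that binds exposed hydrophobic stretches and also holds the stress sensors in check. Its level was 843 and 791 CPM in untreated Empty, 776 and 719 in treated Empty, 743 and 745 in untreated NeuT, and 703 and 773 in treated NeuT. The untreated Empty libraries were the highest, and all other groups overlapped each other. The untreated line difference of -0.14 (log2, SE 0.059) was not called (edgeR adjusted p = 0.0772). It was called under total-count scaling (-0.20, adjusted p = 0.00646), in a fit of the 4 untreated libraries (0.00219), and without NeuT treated replicate 1 (0.0242) or replicate 2 (0.0239). Without Empty untreated replicate 1 it was -0.09 (edgeR adjusted p = 0.439). Under JG-98 the difference was -0.02 (SE 0.059, edgeR adjusted p = 0.836).

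HSP90B1 (ENSG00000166598, chromosome 12, 103930107 to 103953645) encodes GRP94, the ER Hsp90, which folds integrins and Toll-like receptors. Its level was 878 and 892 CPM in untreated Empty, 876 and 801 in treated Empty, 566 and 558 in untreated NeuT, and 482 and 492 in treated NeuT. All 4 NeuT libraries lay far below all 4 Empty libraries. The log2 difference was -0.66 (SE 0.054, edgeR adjusted p = 3.5e-08) without the drug and -0.78 (SE 0.054, edgeR adjusted p = 3.9e-09) with it. Its call held under every alternative, with log2 differences from -0.72 to -0.63 untreated and from -0.86 to -0.72 under JG-98. Other genes cover 16.7% of its exon bases, and the pseudogenes HSP90B2P and HSP90B3P had at most 550 and 204 counts in a library.

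HYOU1 (ENSG00000149428, chromosome 11, 119044188 to 119057227) encodes a large Hsp70 relative that exchanges the nucleotide of BiP. Its level was 222 and 217 CPM in untreated Empty, 199 and 206 in treated Empty, 184 and 192 in untreated NeuT, and 173 and 207 in treated NeuT. The 2 treated NeuT libraries spanned all of the treated Empty and untreated NeuT values. HYOU1 was lower in untreated NeuT (log2 -0.22, SE 0.070, edgeR adjusted p = 0.0156), and under JG-98 the difference of -0.09 (SE 0.070) was not called (edgeR adjusted p = 0.316).

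CALR (ENSG00000179218, chromosome 19, 12938578 to 12944489) encodes calreticulin, the soluble lectin chaperone that binds glycoproteins and stores calcium. Its level was 1138 and 1086 CPM in untreated Empty, 1077 and 1054 in treated Empty, 1003 and 972 in untreated NeuT, and 854 and 833 in treated NeuT. The 4 groups stepped down in that order without overlap. The line difference was -0.17 (log2, SE 0.051, edgeR adjusted p = 0.0115) untreated and -0.34 (SE 0.051, edgeR adjusted p = 3.9e-05) under JG-98.

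Of the oxidoreductases, PDIA4 (ENSG00000155660, chromosome 7, 149003062 to 149028662) and PDIA6 (ENSG00000143870, chromosome 2, 10783391 to 10837977) encode protein disulfide isomerases. PDIA4 stood at 285 and 279 CPM in untreated Empty, 257 and 259 in treated Empty, 259.7 and 247 in untreated NeuT, and 211 and 214 in treated NeuT. Treated Empty and untreated NeuT overlapped, and treated NeuT was the lowest group. PDIA6 stood at 246 and 236 CPM in untreated Empty, 239 and 227 in treated Empty, 187 and 195 in untreated NeuT, and 185 and 185 in treated NeuT. The PDIA6 values split by line, and within a line the groups were close or overlapping. Without the drug the line difference was -0.15 for PDIA4 (log2, SE 0.052, edgeR adjusted p = 0.0235) and -0.34 for PDIA6 (SE 0.053, edgeR adjusted p = 7.1e-05). With the drug it was -0.28 for PDIA4 and -0.33 for PDIA6, both called. Exons of ATP6V1C2 cover 25.2% of the exon bases of PDIA6, and whether reads were counted by strand is not given in the sources used here.

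ERO1B (ENSG00000086619, chromosome 1, 236215555 to 236281985), an oxidase that recharges protein disulfide isomerases, was the lowest of the members, with 71 to 160 counts in a library. Per kilobase it lay at percentile 25.5 of the tested genes. Its level was 2.25 and 2.80 CPM in untreated Empty, 1.86 and 2.18 in treated Empty, 1.99 and 1.80 in untreated NeuT, and 1.89 and 2.28 in treated NeuT. The groups overlapped except that both untreated Empty libraries lay above those of untreated NeuT and of treated Empty. The untreated difference of -0.42 (log2, SE 0.21) was not called (edgeR adjusted p = 0.13). Its paralog ERO1A went the other way: 154 and 147 CPM in untreated Empty against 250.2 and 247 in untreated NeuT, or 0.72 higher on the log2 scale (SE 0.055, edgeR adjusted p = 1.4e-08). All 4 NeuT libraries of ERO1A lay above all 4 Empty libraries.

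The remaining members are small lumenal proteins. SDF2L1 (ENSG00000128228, chromosome 22, 21642302 to 21644299), a partner of the ER J-domain cochaperones, stood at 37.3 and 37.2 CPM in untreated Empty, 32.0 and 32.3 in treated Empty, 31.9 and 33.7 in untreated NeuT, and 28.3 and 27.1 in treated NeuT. Untreated Empty was the highest group, treated NeuT the lowest, and the other 2 overlapped. CRELD2 (ENSG00000184164, chromosome 22, 49918167 to 49927540), a secreted ER stress protein, stood at 75.2 and 71.6 CPM in untreated Empty, 65.5 and 65.3 in treated Empty, 57.0 and 60.4 in untreated NeuT, and 51.4 and 48.5 in treated NeuT. Its 4 groups stepped down without overlap, as those of CALR did. Untreated, the line difference was -0.19 for SDF2L1 (log2, SE 0.069, edgeR adjusted p = 0.0389) and -0.32 for CRELD2 (SE 0.063, edgeR adjusted p = 0.00048). SDF2, the paralog of SDF2L1, was called higher in untreated NeuT, at 35.9 and 37.0 CPM against 30.7 and 31.3 in untreated Empty. That call was lost under total-count scaling (log2 0.16, edgeR adjusted p = 0.0734) and without some single libraries. CRELD1 and CDNF, the paralogs of CRELD2 and MANF, were not called.

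MANF (ENSG00000145050, chromosome 3, 51385047 to 51389397), a secreted neurotrophic factor that binds BiP, had close values in every group except treated NeuT. It stood at 127 and 129 CPM in untreated Empty, 132 and 127 in treated Empty, 128 and 128 in untreated NeuT, and 117 and 105 in treated NeuT. Both treated NeuT libraries lay below the other 6. The untreated line difference was near 0 (log2 difference -0.0032, SE 0.061, edgeR adjusted p = 0.973), and under JG-98 MANF was lower in NeuT by -0.22 (SE 0.061, edgeR adjusted p = 0.00706).

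Under JG-98, 7 of the 10 genes were again lower in NeuT, among 20% of all genes called lower and 21.7% called higher. HYOU1 was called without the drug alone and MANF with it alone, but neither change of the line difference was itself called (edgeR adjusted p = 0.766 and 0.57). Without NeuT treated replicate 2 the calls under JG-98 swapped: HYOU1 was called (-0.23, edgeR adjusted p = 0.00144) and MANF was not (-0.14, 0.0565). MANF was also not called without Empty treated replicate 1 (edgeR adjusted p = 0.0585). SDF2L1, 1 of the 7, was not called in a fit of the 4 treated libraries (edgeR adjusted p = 0.0753) or without Empty treated replicate 1 (0.0592), Empty treated replicate 2 (0.0816) or NeuT treated replicate 2 (0.0792). The median log2 difference of the 10 genes was -0.25, against -0.0011 over all genes, and libraries did not overlap, with NeuT lower, for 7 of the 10 genes and 33.6% of all genes.

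**Figure D3:**
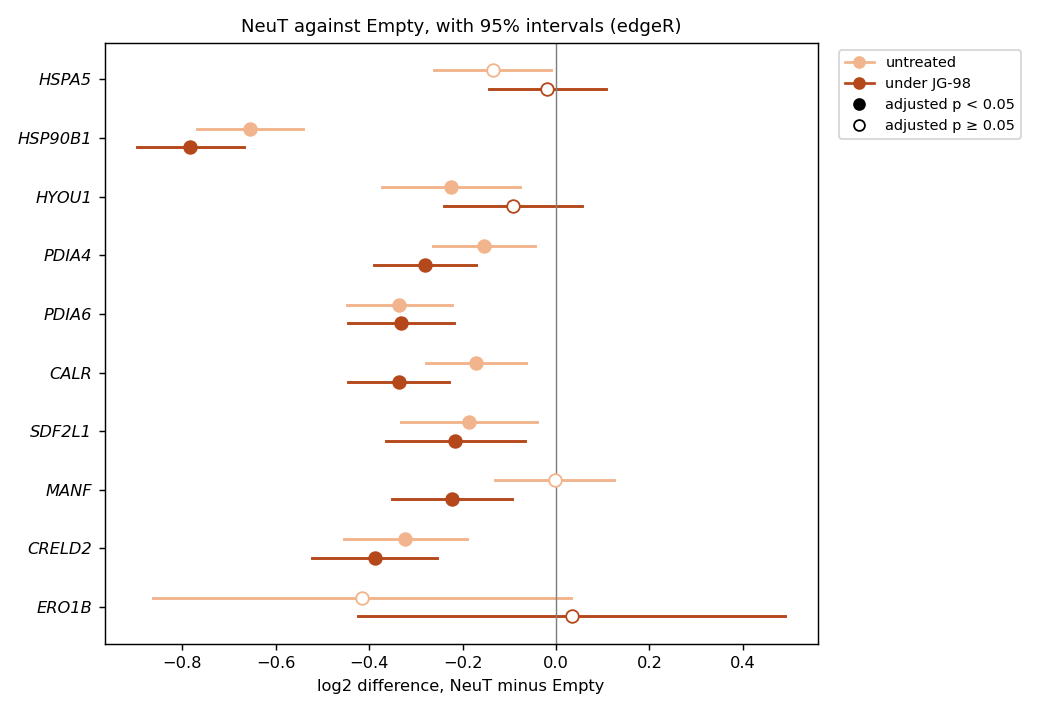
Log2 difference of NeuT minus Empty (horizontal axis) for each gene, untreated (light) and under JG-98 (dark), with 95% intervals from edgeR and filled points where the adjusted p was under 0.05. HSP90B1 stands apart at -0.66 and -0.78, and the HSPA5 points are open, although its untreated difference was called under some alternatives.

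These untreated calls rested in part on single libraries and settings. That of SDF2L1 was lost with DESeq2 (adjusted p = 0.0712) and with edgeR without a filter (0.0782), which left 6. Without Empty untreated replicate 1, NeuT untreated replicate 1 or NeuT untreated replicate 2, only 3 of the 7 remained called in each case (HSP90B1, PDIA6 and CRELD2), and without Empty untreated replicate 2 there were 4. The PDIA4 difference was -0.10 without NeuT untreated replicate 2 (edgeR adjusted p = 0.311). Under JG-98 the count ranged from 5 to 7, with 5 when Empty treated replicate 1 was left out.

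Of 3 ratios to HSPA5, that of HSP90B1 stood well apart between the lines, while that of CALR met at 1.95 in untreated cells and that of MANF overlapped. Per kilobase, the ratio of HSP90B1 to HSPA5 was 0.870 and 0.942 in untreated Empty, 0.942 and 0.931 in treated Empty, 0.636 and 0.626 in untreated NeuT, and 0.573 and 0.532 in treated NeuT. The 2 lines did not overlap. CALR to HSPA5 was 1.95 to 2.12 in Empty, 1.89 and 1.95 in untreated NeuT, and 1.76 and 1.56 in treated NeuT, which was the lowest group. MANF to HSPA5 was 0.249 to 0.291 in Empty and 0.223 to 0.284 in NeuT. Such ratios within a library do not depend on the scaling between libraries.

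**Figure D4:**
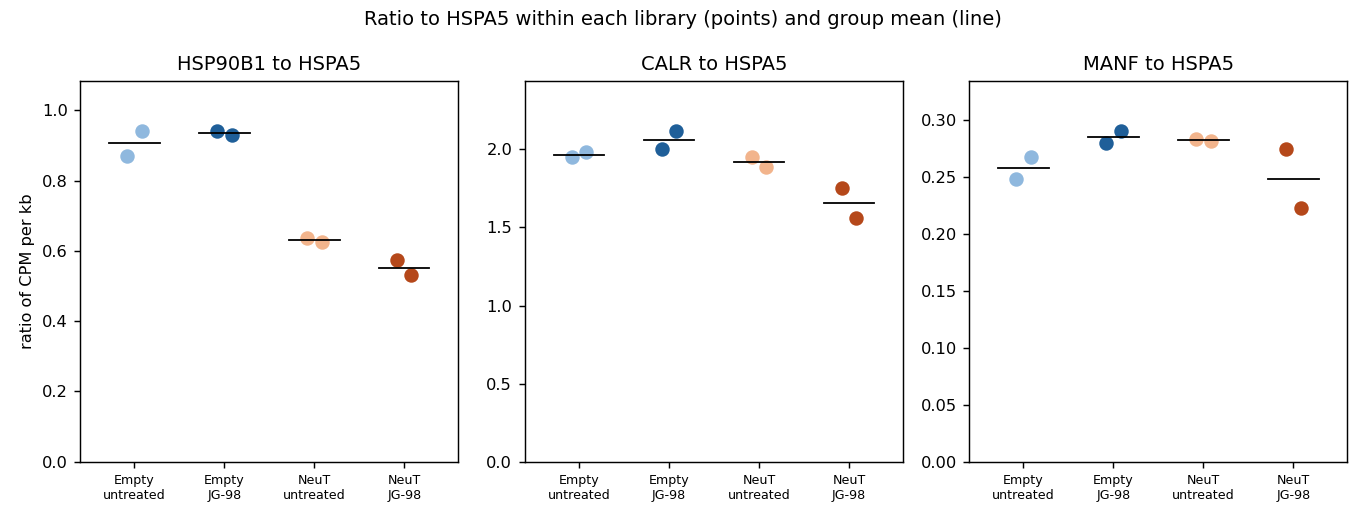
Ratio of HSP90B1, CALR and MANF to HSPA5, each in CPM per kb (vertical axes from 0), in each library (points), with the mean of 2 libraries as a line. The ratio of HSP90B1 to HSPA5 lies between 0.870 and 0.942 in Empty and between 0.532 and 0.636 in NeuT.

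The Hsp90 genes of the cytosol were lower in NeuT as well. HSP90AA1, the inducible form, had log2 differences of -0.84 untreated and -0.87 under JG-98 (SE 0.054 each), and HSP90AB1, the constitutive form, -0.55 and -0.54 (SE 0.049 each), all called by edgeR. The mitochondrial Hsp70 gene HSPA9 was also lower (-0.46 untreated and -0.31 treated, SE 0.049 each, both called). HSPA8, the constitutive cytosolic Hsp70, was not called in either (0.04 and -0.06, SE 0.050 and 0.051).

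Of 45 tested genes among 46 other ER folding genes, 8 were higher and 12 lower in untreated NeuT, with a median log2 difference of -0.04. Under JG-98 the counts were 9 and 11 and the median was -0.02. Over all genes, 21.2% were called higher and 20.8% lower untreated, and 21.7% and 20% under JG-98. QSOX1, a sulfhydryl oxidase, was higher by 0.85 (log2, SE 0.059) and CANX, the membrane-bound partner of calreticulin, was lower by -0.43 (SE 0.051) without the drug, both with non-overlapping libraries. DNAJB11, a J-domain cochaperone of BiP, was lower by -0.32 (SE 0.069), FKBP7 was higher by 0.53 (SE 0.17) and TXNDC5 lower by -0.60 (SE 0.16). The last of these has 60.7% of its exon bases inside other genes and lost its call without Empty untreated replicate 1 (-0.37, edgeR adjusted p = 0.113), without NeuT untreated replicate 1 (-0.35, 0.106) and in a fit of the 4 untreated libraries (-0.59, 0.0995). FKBP7 lost its call without either of the same 2 libraries (edgeR adjusted p = 0.164 and 0.11). With the drug, NUCB2 (-0.53, SE 0.076) and FKBP11 (-0.61, SE 0.21) were among the lower genes, and FKBP11 lost its call without any one treated library (edgeR adjusted p 0.0577 to 0.0992). Among 29 genes of ER protein entry and glycosylation, 8 were higher and 5 lower untreated, and 4 and 7 under JG-98. The counts of these 2 lists lay near the shares over all genes. Of 9 tested stress sensors and their proteases, 4 were higher and 0 lower untreated, and 5 and 0 under JG-98. ATF6 was among the higher ones in both (0.17 and 0.25, SE 0.057 each). Its untreated call was lost under total-count scaling (0.10, edgeR adjusted p = 0.159) and without any one of the 4 untreated libraries (0.0619 to 0.123), as was that of MBTPS1 (0.274, and 0.112 to 0.182).

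After JG-98, no member rose in either line, none fell in Empty, and 3 fell in NeuT. In Empty, edgeR called 0 of 10, and over all genes it called 0.26% higher and 0.0791% lower. At an unadjusted p under 0.05 there were 4 of 10 (HSPA5, PDIA4, SDF2L1 and CRELD2, all lower), against 9.83% of all genes, and DESeq2 called 0 as well. The median log2 fold change was -0.12, against -0.0033 over all genes, and treated libraries lay below untreated ones without overlap for 8 of the 10 genes and 22.2% of all genes. SDF2L1 had the largest difference of the well-covered members, -0.21 (SE 0.069, edgeR adjusted p = 0.271), with a 95% interval from -0.36 to -0.07. For HSP90B1 the interval ran from -0.19 to 0.03, and for MANF from -0.11 to 0.14.

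In NeuT, 3 of 10 fell: PDIA4 by 0.25 (log2, SE 0.052, edgeR adjusted p = 0.0125), CALR by 0.23 (SE 0.051, adjusted p = 0.0203) and HSP90B1 by 0.21 (SE 0.054, adjusted p = 0.0474). Over all genes edgeR called 1.01% lower and 2.01% higher. CRELD2 (-0.23, edgeR adjusted p = 0.0577), SDF2L1 (-0.24, 0.0753) and MANF (-0.20, 0.0847) were not called, with values of about the same size. HSPA5 (-0.01, SE 0.059) and PDIA6 (-0.05, SE 0.053) were not called. HYOU1 was at 0.01 (SE 0.070), with its treated libraries on either side of the untreated ones: the value was 0.14 without NeuT treated replicate 1 and -0.13 without replicate 2. ERO1B (0.13, SE 0.21) had an interval from -0.32 to 0.59. The median was -0.21, against 0.0002 over all genes, and treated libraries lay below untreated ones for 7 of the 10 genes and 22.9% of all genes. In the authors' deposited table of the NeuT comparison, HSP90B1 (adjusted p = 0.0375), PDIA4 (0.0135) and CALR (0.0146) were likewise the members under 0.05, and in the authors' deposited table of the Empty comparison there was none.

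The calls in NeuT depended on single libraries and settings. Without NeuT untreated replicate 1, and likewise without replicate 2, 0 of 10 were called, while the log2 fold changes of the 3 genes lay between -0.30 and -0.20. Without either Empty untreated library the calls of HSP90B1 and CALR were lost. Without NeuT treated replicate 1 the log2 fold changes of SDF2L1, MANF and CRELD2 were -0.28, -0.29 and -0.28. DESeq2 called SDF2L1, MANF and CRELD2 as well as PDIA4, CALR and HSP90B1, and a fit of the 4 NeuT libraries alone called 0. Without robust estimation in edgeR the call of HSP90B1 was lost (adjusted p = 0.051). Over all alternatives the adjusted p ranged from 0.000353 to 0.214 for PDIA4, from 0.000862 to 0.245 for CALR and from 0.00941 to 0.316 for HSP90B1.

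**Figure D5:**
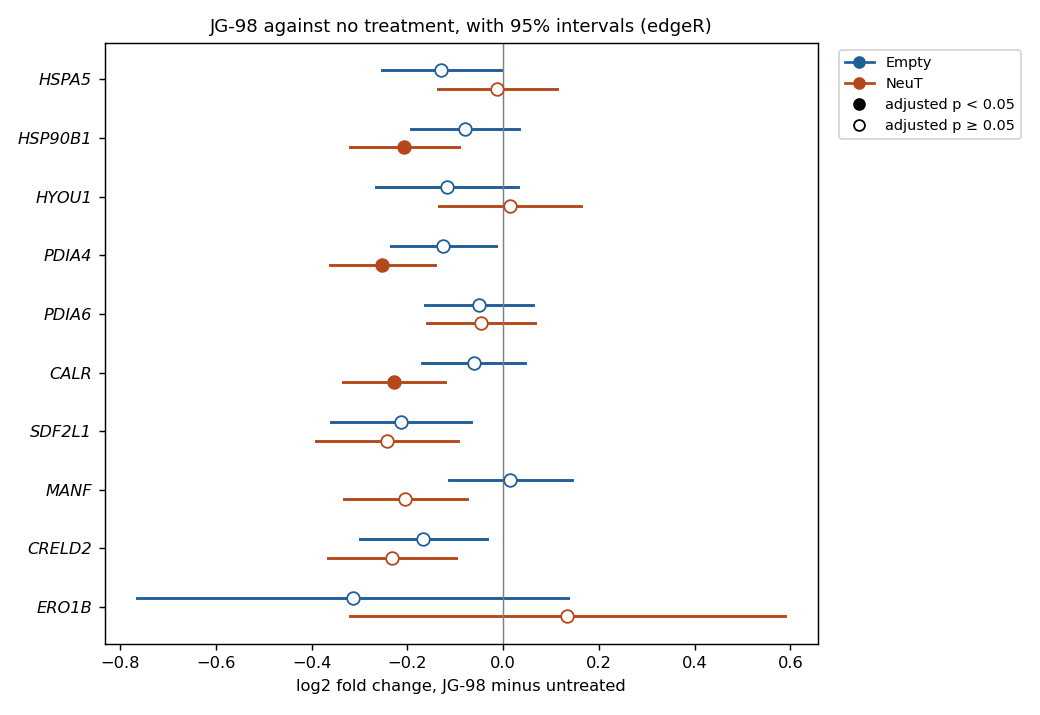
Log2 fold change of JG-98 against no treatment (horizontal axis) for each gene in Empty (blue) and NeuT (orange), with 95% intervals from edgeR and filled points where the adjusted p was under 0.05. The only filled points are PDIA4, CALR and HSP90B1 in NeuT, at -0.25, -0.23 and -0.21.

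Averaged over the lines, 5 of 10 were lower under JG-98, with 1.58% of all genes called lower and 2.39% higher. They were SDF2L1 (-0.23, SE 0.049), CRELD2 (-0.20, SE 0.045), PDIA4 (-0.19, SE 0.037), CALR (-0.14, SE 0.036) and HSP90B1 (-0.14, SE 0.038), with edgeR adjusted p-values of 0.00631 to 0.0438. This count fell to 0 without Empty untreated replicate 1, to 1 without Empty untreated replicate 2, NeuT untreated replicate 1 or NeuT untreated replicate 2, and to 2 without either treated Empty library. The difference between the responses of the 2 lines was called for 0 of 10 members and for 0.00565% of all genes by edgeR, and DESeq2 called 0 members too. CALR (-0.17, SE 0.072) and MANF (-0.22, SE 0.086) were the 2 members under an unadjusted p of 0.05, with edgeR adjusted p-values of 0.599 and 0.57. Without NeuT treated replicate 1, the difference of responses was 0.25 for HYOU1 and -0.31 for MANF, against 0.13 and -0.22 with all libraries.

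Some other genes of the ER stress response, XBP1 and HERPUD1 among them, were called higher under JG-98 in NeuT. SEL1L, another target of that response, was not called in either line by edgeR. It stood at 73.4 and 75.0 CPM in untreated NeuT and at 77.6 and 88.9 in treated NeuT. Over the alternatives its log2 fold change ranged from 0.06 to 0.26 in NeuT and from -0.13 to -0.04 in Empty. XBP1, which encodes the transcription factor made by IRE1 splicing, was at 90.3 and 87.3 CPM in untreated NeuT and at 119 and 142 in treated NeuT, and HERPUD1, a factor of ER-associated degradation, at 68.7 and 61.3 and then 93.8 and 116. Both rose without overlap, XBP1 by 0.56 (log2, SE 0.075, edgeR adjusted p = 0.000525) and HERPUD1 by 0.69 (SE 0.085, edgeR adjusted p = 0.000337). In Empty they stood at 0.32 and 0.36 and were not called by edgeR (adjusted p = 0.11 and 0.124), but DESeq2 called both (adjusted p = 0.0161 and 0.0146), and so did edgeR without a filter, in a fit of the 4 Empty libraries, and without either treated NeuT library. Over all alternatives in Empty the adjusted p ranged from 0.000305 to 0.722 for XBP1 and from 8.12e-05 to 0.697 for HERPUD1. HSPA13, an Hsp70-like protein of microsomes, rose in NeuT by 0.72 (SE 0.11, edgeR adjusted p = 0.0018). It was the only call among the 45 other ER folding genes, whose median was -0.02. In Empty edgeR and DESeq2 called 0 of the 45, and 3 were under an unadjusted p of 0.05, no larger a share than the 9.83% of all genes. ERN1 rose by 0.85 (SE 0.17, edgeR adjusted p = 0.0207) and DNAJB9, a J-domain cochaperone that restrains IRE1, by 0.44 (SE 0.11, edgeR adjusted p = 0.0311). The ERN1 value was 0.53 without NeuT treated replicate 2 and 1.10 without NeuT treated replicate 1, called in both. ERN1 was not called without NeuT untreated replicate 1 (edgeR adjusted p = 0.189) or replicate 2 (0.116), and DNAJB9 was not called without any one of 5 libraries, the exceptions being both treated Empty libraries and NeuT treated replicate 1 (edgeR adjusted p 0.0614 to 0.406). In a fit of the 4 NeuT libraries neither was called (edgeR adjusted p = 0.0604 and 0.0656). Of the 9 tested sensors and proteases, ERN1 and XBP1 were the 2 that rose, with 2.01% of all genes called higher, and ATF6, EIF2AK3, MBTPS1 and MBTPS2 were not called in either line, but ATF6 was called in NeuT without NeuT treated replicate 1 (0.20, edgeR adjusted p = 0.0254). The difference between the responses of the 2 lines was not called by edgeR for XBP1 (adjusted p = 0.615), HERPUD1 (0.556), HSPA13 (0.349), ERN1 (0.68) or DNAJB9 (0.53). DESeq2 called that of HSPA13 (0.65, adjusted p = 0.036), the 1 such call among the 45, and not those of the other 4. Among the 29 entry and glycosylation genes, 1 fell (OST4) in NeuT. In Empty edgeR and DESeq2 called 0 of the 29, and 1 was under an unadjusted p of 0.05, again against 9.83% of all genes.

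Of the genes of the integrated stress response, the 3 taken as reference points (ATF4, DDIT3 and TRIB3) were called higher in both lines, which says nothing of its other genes. ATF4 rose by 0.51 (SE 0.082) in Empty and 1.34 (SE 0.084) in NeuT, DDIT3 by 1.33 and 2.60, and TRIB3 by 0.96 and 1.30, with edgeR adjusted p-values up to 0.0311. The larger rise of ATF4 in NeuT started from a lower level, 110 and 111 CPM in untreated NeuT against 249 and 237 in untreated Empty. Treated NeuT, at 249 and 310 CPM of ATF4, stayed below treated Empty, at 356 and 334. DDIT3 and TRIB3 were higher in treated NeuT than in treated Empty. In Empty the ATF4 and TRIB3 calls were lost when any one Empty library was left out (edgeR adjusted p from 0.0773 for ATF4 to 0.372), that of TRIB3 also with the replicate number as a block (0.11), and that of DDIT3 without Empty treated replicate 1 (0.0526). The differences of these rises between lines were not called by edgeR (adjusted p = 0.0579, 0.152 and 0.702), while DESeq2 called those of ATF4 (adjusted p = 3.8e-08) and DDIT3 (0.0154) and not that of TRIB3 (0.857).

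XBP1, HERPUD1 and CANX carry an ERSE or ERSE-II match, as do 8 of the members but not PDIA4 and MANF. Their matches are given here for comparison with those above.
XBP1, chr22:28800603-28800621: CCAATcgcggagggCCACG
HERPUD1, chr16:56932025-56932035: ATTGGGCCACG
CANX, chr5:179698778-179698796: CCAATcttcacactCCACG
Of 8 members with an ERSE or ERSE-II match, edgeR called 2 lower under JG-98 in NeuT (HSP90B1 and CALR) and 0 higher, against 1.01% and 2.01% of all genes. Of 22 other tested genes with such a match, it called 2 higher (XBP1 and HERPUD1) and 0 lower. Between untreated lines, 6 of the 8 members were lower in NeuT, and of the 22 other genes 5 were higher and 5 lower, against 20.8% lower and 21.2% higher over all genes. The counts of the 22 were near those shares. CANX was among the lower ones, and FICD, which modifies BiP with AMP, among the higher (0.46).

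Over the 8 libraries, the 45 pairs of members had Pearson correlations of log2 CPM from -0.09 (MANF with ERO1B) to 0.98 with a median of 0.71. Without ERO1B, the least covered member, the 36 pairs ranged from 0.10 to 0.98 with a median of 0.77. The points share libraries and groups. After the group means were removed, the median was -0.0006 for the 45 pairs and 0.10 for the 36, and HYOU1 with MANF stood at -0.97. With 2 libraries a group, the values within groups rest on few points. HSPA5 was most like HYOU1 among the members (r = 0.80), and that was rank 63 among 13142 genes over the 8 libraries. CROT, NCK1-DT, ZNF696, HS6ST2 and LSM14A had the highest correlations with HSPA5, from 0.91 to 0.96.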

How the data were processed

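Poly(A)-selected RNA of 8 libraries was sequenced. The authors deposited raw counts per gene, laid out as featureCounts writes them, and per the submitters' processing notes Trim Galore 0.5.0, FastQC 0.11.7, HISAT2 2.1.0, SAMtools 1.9, featureCounts 1.6.3 and limma were used with GRCh38 (hg38). The annotation release and the use of strand are not given in the sources used here. The authors also deposited, per the file headers, 1 table per line with log2 fold changes, mean log2 levels, test scores, p-values and adjusted p-values for 17698 genes.

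Samples were grouped by title, and 0 columns matched no sample. Counts were analysed with edgeR 4.0.16 (R 4.3.3): filterByExpr with minimum count 10 and total 15, TMM scaling, and 1 robust quasi-likelihood fit of the 4 groups. A total of 6 contrasts were tested, Benjamini-Hochberg adjustment ran over 17693 genes, and a gene is called, or said to rise or fall, where the adjusted p was under 0.05. Standard errors are the log2 fold change divided by the square root of F. An exact two-sided permutation test of 2 against 2 libraries cannot go below 0.333. The fit was also run on simulated counts, whose outcome is not given here and lends no support to the results. Replicate numbers were not treated as pairs, since the labels do not say that a replicate number is a shared culture. Replicate deviations correlated by at most 0.244 between groups (treated Empty with treated NeuT), which cannot show whether libraries were paired. Intervals cover counting error and the spread between libraries, not PCR duplicates.

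The members and gene lists were chosen with earlier results of these data known. Besides all members and 22 reference genes, of which ATF6B and CALR3 were not tested, the text names genes of the list of other ER folding genes. These are the 3 largest called rises and falls per contrast, averaging 50 counts or more, with no overlap between libraries. FICD, OST4 and the likeness genes were named for their counts or ranks. Alternatives were RLE factors, total counts, no filter, 10 counts in every library, DESeq2 1.42.0, limma-voom (limma 3.58.1), no robust estimation, a replicate block, the 4 libraries compared, and each library left out. Planned protein features and a planned marker of the cell line are not reported here.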

Additional observations from a re-analysis of the deposited data

How the results depend on the processing

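Of the log2 values of the genes named, 941 kept direction and side of the threshold when 1 library was left out, 114 changed side and 33 changed sign. Under the other alternatives 1158 kept both, 34 changed side and 12 changed sign. The causes were not tested, beyond the fewer or more genes and libraries that a setting itself brings.

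The number of genes called for JG-98 in Empty was 60, and became 282 with no filter, 151 with DESeq2, 205 with only the 4 libraries compared, and 9 to 417 with 1 library left out. For JG-98 in NeuT it was 533, and became 1000 with no filter, 185 with the 4 libraries, and 132 to 2133 with 1 left out. Averaged over lines it was 702, with 1142 for no filter and 259 to 1934 with 1 left out. For the difference of responses it was 1, with 2 for total counts, 138 for no filter, 26 for DESeq2, 3 without robust estimation, and 1 to 777 with 1 left out. Members called for JG-98 in NeuT numbered 3, then 5 with no filter, 6 with DESeq2, 0 with the 4 libraries and 0 to 6 with 1 left out. With 1 left out, members called numbered 0 to 6 for the average, 3 to 8 between untreated lines, and 0 to 2 for the difference of responses. Where a group kept 1 library, that library was assumed to vary like the others.

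With the replicate number as a block, 66 genes were called in Empty, 593 in NeuT, 780 on average, 7497 and 7451 between lines untreated and treated, and 1 for the difference of responses, and the members called were 0, 3, 5, 7, 7 and 0. The block changed no call of a member. Pairing crossed in NeuT, chosen after seeing the data since replicates there correlated by -0.101, gave 454 genes and 2 members for JG-98 in NeuT.

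Sign changes concerned values that were not called in the fit of all libraries, though 3 of the range ends for HYOU1 were: -0.2281 and -0.1211 without NeuT treated replicate 2 (adjusted p = 0.00144 and 0.0404), and 0.2492 without NeuT treated replicate 1 (0.0371). The difference of responses of PDIA6 was -0.0037 with RLE, -0.0028 with total counts, -0.0021 with 10 counts in every library, -0.0035 with DESeq2, and -0.0313 to 0.038 with 1 library left out. The untreated line difference of MANF was 0.0052 with RLE and with DESeq2, 0.0071 with 10 counts in every library, 0.0017 with the 4 libraries, and -0.0102 to 0.0172 with 1 left out. The treated line difference of ERO1B was -0.0429 with total counts. In Empty, JG-98 gave -0.0011 for MBTPS2 and -0.0019 for DNAJB9 with no filter, and -0.0221 for DNAJB9 with limma-voom. With 1 library left out, JG-98 in Empty ranged from -0.0789 to 1.1218 for CDNF, -0.0987 to 0.1017 for CRELD1, -0.1659 to 0.1726 for DNAJB9, -0.1697 to 0.0035 for EIF2AK3, -0.0127 to 0.0409 for MANF, -0.0101 to 0.0201 for MBTPS2 and -0.0438 to 0.0068 for SDF2. JG-98 in NeuT ranged from -0.0988 to 0.0375 for CRELD1, -0.015 to 0.2609 for ERO1B, -0.0901 to 0.0528 for HSPA5, -0.1302 to 0.1375 for HYOU1 and -0.1429 to 0.0066 for MBTPS2. The treated line difference ranged from -0.107 to 0.169 for ERO1B, -0.087 to 0.0561 for HSPA5 and -0.2281 to 0.0397 for HYOU1. For HYOU1 the average ranged from -0.1211 to 0.0129 and the difference of responses from -0.0181 to 0.2492.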
